A study of Homo sapiens with 4 samples.

Results

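Short internal introns were followed in the cytoplasm of SUM159 cells after inhibition of the spliceosome. They are the introns of 151 to 1000 bp that are neither the first nor the last of their gene in transcription order, chosen from position and length alone. Of 142206 introns listed with both read counts, 34645 (24.4%) met this rule. They lay in 9116 of 15902 genes, with a median of 2 per gene, and had a median length of 481 bp. NBPF20 held the most, 128. All coordinates are on hg38.

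SUM159 is an established line from a human triple-negative breast cancer. The cells received H3B-8800, a small molecule spliceosome inhibitor, or the vehicle DMSO, for 12 h. Each group had 2 libraries, which the series describes as biological duplicates, and both groups share the same line and the same cytoplasmic fraction. Polyadenylated RNA was sequenced from strand-specific libraries. It is 1 line, so the values describe that line only. In bulk RNA, fewer cells with a transcript and less of it per cell cannot be told apart.

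An intron is removed in 2 chemical steps. The U1 snRNP binds its 5′ splice site, the U2 snRNP binds the branch site near its 3′ end, and the branch adenosine attacks the 5′ splice site. The SF3b complex of U2, built around SF3B1 and PHF5A, clamps the branch site, and H3B-8800 binds SF3b at that place. Short introns can be recognised across the intron itself, whereas exons flanked by long introns are recognised across the exon. An RNA that keeps an intron is mostly held in the nucleus, and when it reaches the cytoplasm a stop codon in the intron can make it a target of nonsense-mediated decay.

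The sequences below show the 3′ ends of introns on which the results turn, since the branch site and the 3′ splice site lie there. Sequence was read from GENCODE release 29 transcripts (GRCh38) whose exon covers the whole intron, which was the case for 3112 of the 34645 introns. Each line gives the last 50 bases of the intron and the first 3 of the next exon, from 5′ to 3′. Capitals mark the terminal AG and any match to CTNAC, a short form of the branch site, searched on the transcribed strand only. The first 7 had a higher ratio of intronic to spliced reads after H3B-8800.
TGFBI intron 5: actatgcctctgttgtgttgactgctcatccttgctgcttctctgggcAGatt
RACK1 intron 5: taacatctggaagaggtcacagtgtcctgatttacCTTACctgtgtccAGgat
RACK1 intron 4: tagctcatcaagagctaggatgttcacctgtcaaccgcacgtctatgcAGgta
RPS21 intron 4: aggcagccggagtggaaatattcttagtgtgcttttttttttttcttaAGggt
FTH1 intron 2: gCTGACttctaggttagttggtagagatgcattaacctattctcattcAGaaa
SRSF5 intron 3: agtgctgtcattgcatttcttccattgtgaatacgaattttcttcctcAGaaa
ITGA5 intron 25: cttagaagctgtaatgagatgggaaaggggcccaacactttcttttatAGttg
Within FLNA and EIF4A2, introns that did not pass the test stood beside introns that did. FLNA introns 42 and 43 and EIF4A2 intron 8 passed, and FLNA intron 41 and EIF4A2 intron 3 did not. FLNA intron 43 reached the depth asked for the test only through the treated libraries.
FLNA intron 41: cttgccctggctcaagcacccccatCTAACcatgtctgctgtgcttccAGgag
FLNA intron 42: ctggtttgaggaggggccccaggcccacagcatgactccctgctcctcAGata
FLNA intron 43: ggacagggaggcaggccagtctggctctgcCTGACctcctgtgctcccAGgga
EIF4A2 intron 3: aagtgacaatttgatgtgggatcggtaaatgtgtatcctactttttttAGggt
EIF4A2 intron 8: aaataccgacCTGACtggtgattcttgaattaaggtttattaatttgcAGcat
PAXX intron 2 hardly changed, and the last 3 introns had a lower ratio.
PAXX intron 2: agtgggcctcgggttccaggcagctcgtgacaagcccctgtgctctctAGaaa
HNRNPH1 intron 10: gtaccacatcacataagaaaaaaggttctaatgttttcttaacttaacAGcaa
PRPF39 intron 3: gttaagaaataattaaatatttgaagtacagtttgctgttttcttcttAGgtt
NOP56 intron 8: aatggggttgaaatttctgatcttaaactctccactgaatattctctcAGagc
TGFBI intron 5 (chr5:136047016-136047273, plus strand) is short enough to print whole, with the terminal GT and AG in capitals. In the reading frame of the upstream exon its first stop codon is codon 14 of the intron.
TGFBI intron 5, whole: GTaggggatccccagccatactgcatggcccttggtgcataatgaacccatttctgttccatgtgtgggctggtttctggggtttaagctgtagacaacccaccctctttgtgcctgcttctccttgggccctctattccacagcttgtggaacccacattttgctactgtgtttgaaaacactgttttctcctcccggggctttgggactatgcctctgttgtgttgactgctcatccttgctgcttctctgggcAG

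Reads inside an intron are called intronic here, and reads that span it are called spliced. The library totals were 58000000 and 62000000 reads after H3B-8800 and 64000000 in each DMSO library. Of the markers checked, VIM, a mesenchymal intermediate filament gene, held 58892 to 87321 spliced reads per library. CD44 and AXL were also read, ESR1, PGR, CD3E and ALB were at 0, and PTPRC is not listed. CDH1 had at most 1 spliced read per library, EPCAM 3 to 15 and PECAM1 27 to 57. In spliced reads the replicates of a group differed by more than sampling noise, with a chi-square per degree of freedom of 1.95 and 1.86 over these introns. In intronic reads it was 2.34 and 2.0. Even numbers made up 64.0% of the intronic counts above 0 and 47.7% of the spliced counts. If the 2 mates of a pair were counted separately in introns, a value near 2 comes from counting alone, so a spread beyond counting is not shown for intronic reads. Reads may then not be independent, and counting intervals cover counting error only.

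With H3B-8800, cytoplasmic RNA held more short internal introns. Over all 34645, intronic reads numbered 80791 and 90296 after H3B-8800 and 36058 and 36471 in DMSO. Spliced reads at the same introns numbered 3105397 and 3335290 after H3B-8800 and 3885189 and 3887012 in DMSO. Intronic reads per 100 spliced reads were therefore 2.6 and 2.71 after H3B-8800 and 0.928 and 0.938 in DMSO. The treated libraries were far above both DMSO libraries, at 2.65 ± 0.075 against 0.933 ± 0.0072 (SD, n = 2 each), a ratio of 2.84. A two-sided exact permutation test of 2 libraries against 2 cannot give a p below 0.333, which is the p reached here. The introns also took a larger share of all intronic reads, 7.8% and 8.02% after H3B-8800 against 5.73% and 5.8% in DMSO. Their share of all spliced reads was 26.8% and 26.6% against 27.3% and 27.4%.

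Most of these introns gave no intronic read at all. In 22967 (66.3%) no library held one, and 1092 had a mean of at least 10. An exon of another annotated transcript overlapped 9102, on either strand, and any such overlap is called an exon inside here. The exon covered the whole intron in 3112, only part of it in 4523, and was on the opposite strand only in 647. In 2714 it belonged to a transcript annotated as a retained intron. Reads from such exons cannot be separated from reads of the retained intron. The other 25543 had no annotated exon inside. These had 1.46 and 1.54 intronic reads per 100 spliced with H3B-8800 and 0.408 and 0.404 in DMSO, which is 3.69 times as many with the inhibitor. Leaving out the 1% of introns with the most intronic reads gave 3.29. Introns with an exon inside had a higher level in both groups, 3.81 ± 0.091 and 1.47 ± 0.019 (SD, n = 2 each), and a smaller ratio of 2.59.

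Within the class the level followed length. In introns without an exon inside, DMSO levels were 0.204 ± 0.0074 intronic reads per 100 spliced up to 250 bp, 0.307 ± 0.0051 up to 500 bp, 0.52 ± 0.0039 up to 750 bp and 0.713 ± 0.017 up to 1000 bp (SD, n = 2 each). With H3B-8800 the same groups reached 0.889 ± 0.055, 1.15 ± 0.036, 1.79 ± 0.086 and 2.52 ± 0.063. A longer intron offers more positions for a read, so these levels are not per length. The H3B-8800 over DMSO ratio was 4.36, 3.73, 3.44 and 3.54 in that order. Without the 1% of introns with the most intronic reads it was 3.26, 3.16, 3.3 and 3.03, so the higher value of the shortest group rested on few introns.

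**Figure D1:**
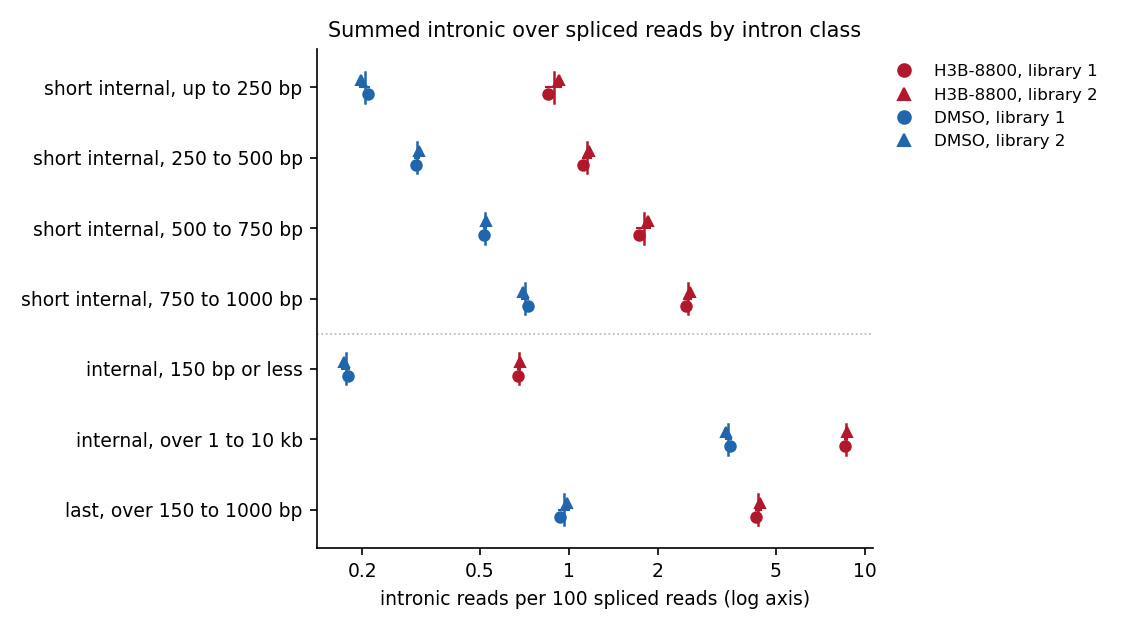
Intronic reads per 100 spliced reads (log axis), summed over introns without an annotated exon inside. Points are libraries, vertical bars group means and horizontal bars SD (n = 2 each). The 4 upper rows divide the short internal introns by length and the 3 lower rows are the classes compared with them. In every row both H3B-8800 libraries lie to the right of both DMSO libraries.

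By position within the gene the ratio varied less than 2-fold. The ratio was 4.04 for the intron just before the last and 4.49 for the one before that. It was 3.61 at 3 and at 4 introns before the last, 3.2 at 5 to 9 and 3.59 at 10 or more. Without the 1% of introns with the most reads these 6 values were 3.35, 3.52, 3.38, 3.26, 3.32 and 3.27, so the higher values near the 3′ end rested on few introns. Counted from the 5′ end, intron 2 had a ratio of 2.57 (0.764 ± 0.00015 against 0.297 ± 0.0093, SD, n = 2 each). Intron 3 had 3.84, intron 4 had 3.33 and later introns had 4.01. Trimmed in the same way, the 4 values were 2.84, 3.08, 2.85 and 3.53.

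The rise of the short internal introns was set against 3 other classes, all without an annotated exon inside. For each library, the log2 of intronic per spliced reads in the other class was subtracted from that in the short internal introns. Against 40198 internal introns of over 1000 and up to 10000 bp the difference was -2.55 and -2.5 after H3B-8800 and -3.1 and -3.07 in DMSO. The short introns were lower in level but rose more, by 0.56 on the log2 scale (SE 0.029) or 1.47-fold, and by the same 0.56 in genes that hold both classes. Leaving out the 1% of introns with the most intronic reads left 0.26, and including introns with an exon inside left 0.30.

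Against 9001 internal introns of up to 150 bp the 4 differences were 1.12 and 1.17 after H3B-8800 and 1.19 and 1.22 in DMSO. The rise of the 2 classes differed by -0.06 (SE 0.033). The value was -0.19 with introns holding an exon included and -0.10 in genes with both classes. Without H3B-8800 replicates 1 and 2 in turn it was -0.03 and -0.09, and without DMSO replicates 1 and 2 it was -0.08 and -0.04. Last introns of the same length, 3228 of them, rose more. The differences from them were -1.56 and -1.53 after H3B-8800 and -1.2 and -1.29 in DMSO, so the internal introns differed from them in their rise by -0.30 on the log2 scale (SE 0.049), or by -0.15 without the 1% of introns with the most reads. In each of the 3 comparisons the 2 treated libraries lay on one side of the 2 DMSO libraries, and the exact permutation p was 0.333, the smallest possible.

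Single introns were tested where both kinds of read had a mean of at least 10 over the 4 libraries. This left 965 short internal introns in 769 genes, 2.79% of the class, which held 61.5% of its intronic and 24.3% of its spliced reads. H3B-8800 came with a higher intronic-to-spliced ratio in 685 introns, from 564 genes, and with a lower one in 7 (quasi-likelihood test of edgeR at an adjusted p under 0.05, by Benjamini-Hochberg). Among all 9937 introns tested, 56.5% were higher and 2.88% lower, against 71.0% and 0.725% of the short internal introns. Their median log2 change was 2.19, which is 4.57-fold (quartiles 1.18 and 3.17), beside a median of 1.62 over all introns tested. In 526 (54.5% of the 965) the rise was at least 4-fold and in 119 at least 16-fold. These counts have no share over all introns tested beside them, so they do not set the class apart. In 808 of the 965 both treated libraries were above both DMSO libraries (beside 72.7% of all tested introns), and in 25 both were below (beside 8.29%).

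An intron with few reads in DMSO could enter this test only if it was high with H3B-8800. Of the 965, 457 entered that way and 393 of these were higher. With a mean of 10 intronic and 10 spliced reads asked of the DMSO libraries alone, 508 remained and 292 (57.5%) were higher, beside 44.0% of all introns chosen so, with a median of 1.5. The 7 lowered introns were all among the 508. In 18 tested introns no DMSO library held an intronic read. Setting these at a bound from 3 reads per library left the median at 2.19. All 18 were called higher, and a value that stays above the median cannot move it, so this is no check of the median. Ribosomal protein genes, which have many processed pseudogenes, did not carry the count: without them 656 of 924 were higher and the median was 2.23.

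**Figure D2:**
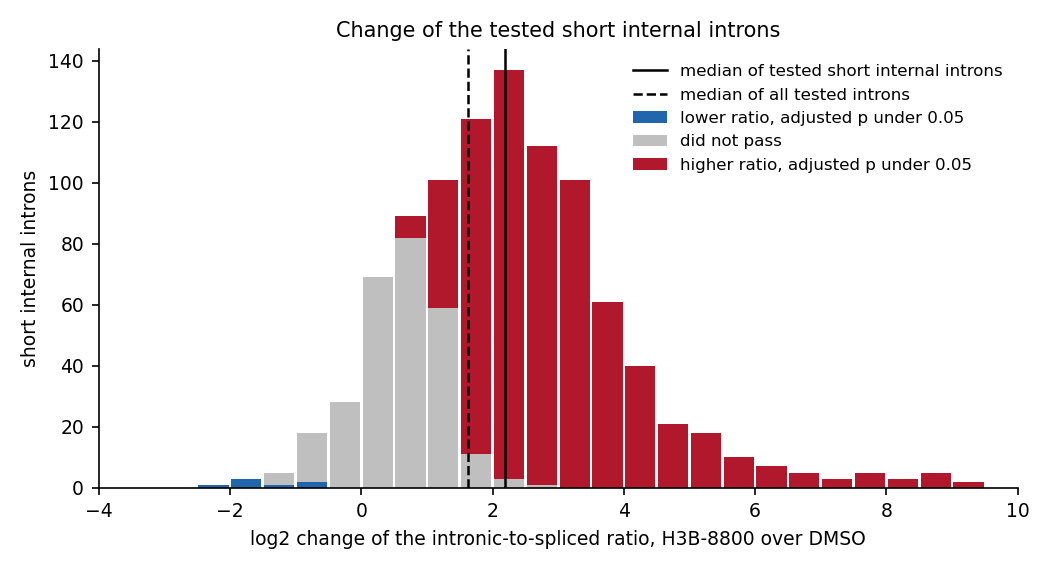
Histogram of the log2 change of the intronic-to-spliced ratio for the 965 tested short internal introns, in bins of 0.5. Colours separate 685 introns with a higher ratio, 7 with a lower ratio and 273 that did not pass, and vertical lines mark the medians of 2.19 for these introns and 1.62 for all tested introns.

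A ratio can rise because intronic reads rise, because spliced reads fall, or both. Of the 685 raised introns, 524 also had more intronic reads per library total, and 296 had fewer spliced reads. Both held for 180. In 258 intronic reads were higher and spliced reads did not pass, and in 86 both kinds of read were higher. Another 116 had fewer spliced reads and no passing rise of intronic reads, and 45 passed for neither kind alone. Over the 685 the median change was 2.10 for intronic reads and -0.31 for spliced reads on the log2 scale. Intronic reads were scaled to library totals and spliced reads by TMM, here and in the changes given below. The changes of intronic and spliced reads therefore do not add up to that of the ratio. Library totals gave more falls of spliced reads over the class (below), and this split was not repeated with them. The split was also not made over all raised introns, so it does not set the class apart. The 685 were chosen by a ratio of these same reads, so a change of one kind or the other is built in.

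**Figure D3:**
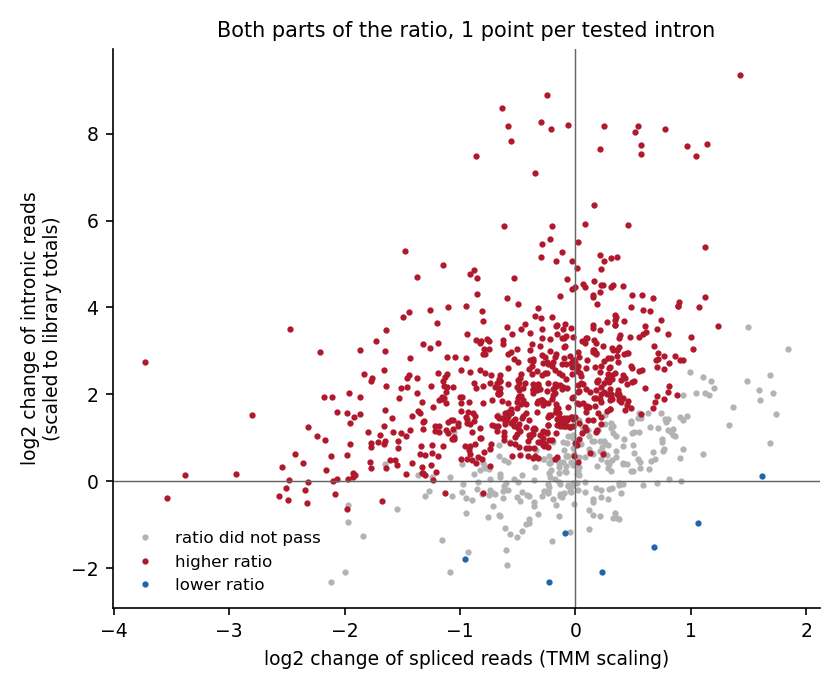
Log2 change of intronic reads (vertical axis, scaled to library totals) against that of spliced reads (horizontal axis, TMM scaling), 1 point per tested short internal intron. Raised introns, with medians of 2.10 and -0.31, fill the upper part on both sides of 0 for spliced reads.

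Tested alone and scaled to library totals, intronic reads were higher in 600 of 1092 short internal introns (54.9%, beside 48.2% of all introns tested) and lower in 28 (2.56%, beside 5.74%). The median log2 change was 1.46, against 1.13 for all. TMM scaling, which centres the typical intron near 0 (a median of 0.09 over all introns), called 244 higher and 116 lower, so 67.8% of the called introns were higher in place of 95.5%. Without H3B-8800 replicate 1 or 2, edgeR called 0, with a smallest adjusted p of 0.101 and 0.104, while 409 and 387 had an unadjusted p under 0.05.

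Spliced reads moved less and in both directions. With TMM scaling they were higher at 2950 of 16186 short internal introns (18.2%, beside 21.5% of all introns tested) and lower at 4182 (25.8%, beside 21.7%), with a median of -0.10 against 0.01. With library totals 1729 were higher and 5884 lower, so the share of higher calls moved from 41.4% to 22.7%, and the median of all introns moved to -0.23. Without H3B-8800 replicate 1 or 2, edgeR called 0 of them, with a smallest adjusted p of 0.0824 and 0.0787 and 5993 and 6103 introns at an unadjusted p under 0.05.

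Some introns were read only after treatment. Of the 13499 short internal introns with at least 10 spliced reads in every library, 185 (1.37%) in 178 genes had 0 intronic reads in both DMSO libraries and at least 5 in both H3B-8800 libraries. Over all introns that share was 1.49%. The reverse was seen in 4 (0.0296%, beside 0.0449%). The examples in the next paragraph were chosen after their values were seen, and a fold given for them is against 3 reads per DMSO library.

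Intron 12 of PRPF39, which encodes a factor associated with the U1 snRNP, had 66 and 93 intronic reads after H3B-8800 and 0 and 0 in DMSO. Its ratio was at least 12.3-fold higher (chr14:45114258-45114493). Spliced reads at the intron also rose, from 60 and 57 to 119 and 132. Intron 6 of USP1, a deubiquitinase of the Fanconi anaemia pathway, had 35 and 80 against 0 and 0, at least 28.3-fold. The 2 treated libraries differed most at this intron among the examples. Intron 7 of STK11, the kinase LKB1, had 43 and 51 against 0 and 0, at least 30.2-fold, and intron 14 of KDM5C, a histone demethylase, had 27 and 43 against 0 and 0, at least 12.0-fold. In these libraries USP1 kept 98 and 96 spliced reads against 129 and 160, so the spliced form was still present.

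The 12 introns with the strongest evidence for a higher ratio and no annotated exon inside came from genes of several kinds. Their sequences were not used here. Intron 5 of the ribosomal protein gene RPL12 (chr9:127447990-127448336) had 290 and 371 intronic reads after H3B-8800 and 12 and 11 in DMSO. Its spliced reads numbered 8091 and 8945 against 10676 and 10541. The log2 ratio rose by 5.14 (SE 0.27; edgeR, Benjamini-Hochberg adjusted p = 2.78e-07), and spliced reads changed by 0.01 with TMM scaling. The intron thus had 3.58 and 4.15 intronic reads per 100 spliced with H3B-8800 and 0.112 and 0.104 in DMSO.

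Intron 20 of UBAP2L, a ubiquitin-associated protein of stress granules, had 400 and 396 intronic reads against 14 and 11. This is the penultimate intron of the gene (chr1:154260030-154260891). Per 100 spliced reads the values were 62.5 and 53.7 against 1.88 and 1.54, and the ratio rose by 5.06 (SE 0.32; edgeR adjusted p = 6.2e-07). With H3B-8800 intronic reads thus came to more than 50 for every 100 spliced reads. Intron 3 of TIMP1, an inhibitor of matrix metalloproteinases, had 359 and 387 against 32 and 20, while its spliced reads rose by 0.65 (SE 0.06; edgeR adjusted p = 6.19e-08), so both forms were higher.

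In TUBG1, the γ-tubulin that nucleates microtubules, the spliced form fell. Intron 8 had 54 and 73 intronic reads against 16 and 8, and 162 and 168 spliced reads against 733 and 739. The ratio rose by 4.55 (SE 0.40) and spliced reads fell by 1.83 (SE 0.10; edgeR adjusted p = 4.73e-11). SYMPK, a scaffold of mRNA 3′ end processing, and TCF25 showed the same at lower depth. SYMPK intron 17 had 45 and 63 intronic and 18 and 24 spliced reads after H3B-8800, against 4 and 6 intronic and 93 and 72 spliced with DMSO. TCF25 intron 15 had 36 and 44 intronic and 20 and 31 spliced reads against 2 and 1 and 73 and 93. In both genes intronic reads outnumbered spliced reads after treatment, at 250 and 262 per 100 in SYMPK and 180 and 142 in TCF25.

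PSMD4, the ubiquitin receptor of the proteasome's regulatory particle, had 72 and 89 reads in intron 6 against 1 and 0. Its pooled ratio was 258 times higher (95% exact counting interval 45.7 to 10300). Intron 11 of EPB41L3, which links membrane proteins to the actin skeleton, had 34 and 36 against 0 and 0, at least 21.9-fold. Intron 5 of PPM1G, a nuclear protein phosphatase, had 22 and 36 against 1 and 1, a ratio of 68.4 (counting interval 18.1 to 579). Both intervals are wide, with 2 or fewer DMSO reads behind them. All 3 introns had a mean under 10 intronic reads in DMSO and entered the test only through the treated libraries. A gap between the groups was thus built into their choice. The same holds for the named introns of SYMPK, TCF25 and HNRNPA2B1. Intron 5 of RPS4X, a ribosomal protein gene on the X chromosome, had 79 and 79 against 11 and 10, which is 0.652 ± 0.052 against 0.0596 ± 0.0091 per 100 spliced reads (SD, n = 2 each). HNRNPA2B1 introns 7 and 8 complete the 12 and are described with their gene.

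Among introns with an annotated exon inside, the strongest evidence for a higher ratio included RACK1 introns 4 and 5, FTH1 intron 2 and RPS21 intron 4. RPS21 encodes a protein of the small ribosomal subunit. RPS21 intron 4 (chr20:62387915-62388308) had 555 and 525 intronic reads after H3B-8800 and 6 and 13 in DMSO, and its ratio rose by 5.68 (SE 0.33; edgeR adjusted p = 4.65e-07). That is 18 ± 2 per 100 spliced reads against 0.349 ± 0.19 (SD, n = 2 each). Its spliced reads rose by 0.46 on the log2 scale. RPS21 intron 4 and RACK1 intron 4 had a mean under 10 intronic reads in DMSO. They entered the test only through the treated libraries, so a gap between the groups was built into their choice. FTH1 intron 2 had 602 and 583 intronic reads against 57 and 64.

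FTH1 encodes the ferritin heavy chain, which stores iron, and was the most deeply read of these genes. Its 144864 and 153507 spliced reads after H3B-8800 exceeded the 122065 and 125884 in DMSO. Even after the rise, of 3.02 on the log2 scale (SE 0.17), the intron had only 0.416 and 0.38 intronic reads per 100 spliced. Among the introns printed above, FTH1 intron 2 and RACK1 intron 5 have a CTNAC match in the last 50 bases, and RPS21 intron 4 and RACK1 intron 4 have none. TGFBI intron 5, which has none either, had 261 and 302 against 2 and 0 intronic reads, with H3B-8800 over DMSO at 247 (counting interval 68.1 to 2050). TGFBI encodes a secreted matrix protein, and its intron was chosen after its values were seen. That intron also entered the test only through the treated libraries.

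**Figure D4:**
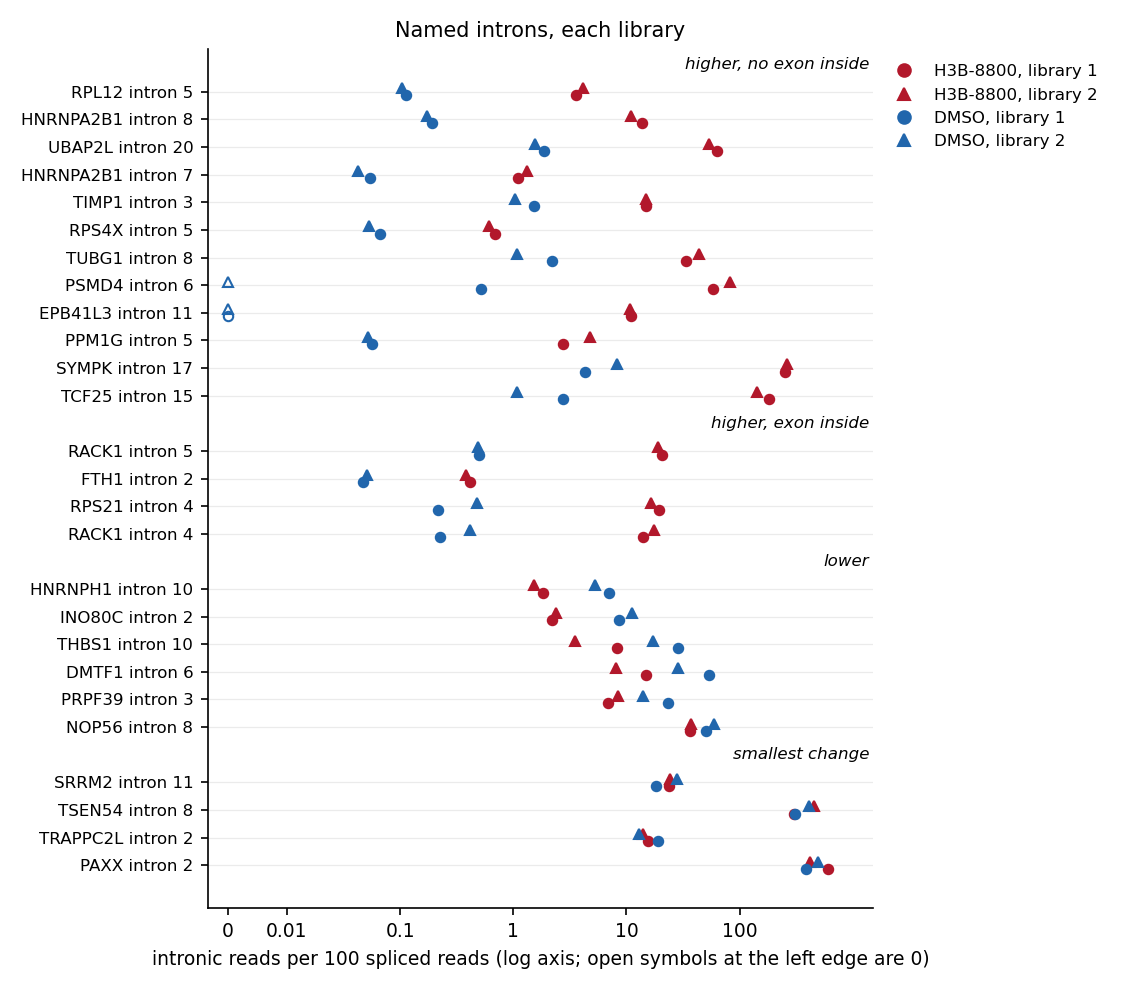
Intronic reads per 100 spliced reads (log axis) in each library for 26 introns named by rule: 12 raised without and 4 raised with an annotated exon inside, 6 lowered, and 4 with the smallest change. Red and blue symbols are far apart in the first 2 groups, red lies left of blue in the third, and they overlap in the last.

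Lower ratios were few. All 7 were in introns with an annotated exon inside, and 0 of the 230 tested without one were lowered. Reads of such an exon cannot be told apart from retention in the introns below. HNRNPH1, an hnRNP protein that binds G-rich RNA, had 16 and 16 intronic reads in intron 10 after H3B-8800 and 94 and 78 in DMSO, and its ratio fell by 1.86 on the log2 scale (SE 0.34; edgeR adjusted p = 0.000668). Intronic reads themselves fell by 2.32 (SE 0.32). Intron 2 of INO80C, a subunit of the INO80 chromatin remodeller, had 5 and 5 against 20 and 26, and its ratio fell by 2.08 (SE 0.51; edgeR adjusted p = 0.00457). It missed the threshold without H3B-8800 replicate 1 (adjusted p = 0.0515).

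The other 4 named falls were weaker. In intron 10 of THBS1, a matrix glycoprotein, intronic reads were 7 and 4 against 19 and 15, and the call was lost without H3B-8800 replicate 2 (adjusted p = 0.17) or DMSO replicate 1 (0.0788). DMTF1 intron 6, in a transcription factor gene, had 12 and 8 against 23 and 19 and was lost without the same libraries (adjusted p = 0.159 and 0.0924). In PRPF39 intron 3, intronic reads were 16 and 24 against 24 and 15, which overlap, while spliced reads rose from 103 and 107 to 231 and 285. That call (adjusted p = 0.032) was lost with DESeq2 (adjusted p = 0.101), with a replicate block (0.0571), without either H3B-8800 replicate (0.152 and 0.101) and without DMSO replicate 1 (0.207). NOP56 intron 8 is described with its gene.

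The 4 introns of high depth with the smallest changes were in SRRM2, TSEN54, TRAPPC2L and PAXX. Intron 11 of SRRM2, a large SR-related protein of nuclear speckles, had 57 and 73 intronic reads after H3B-8800 and 38 and 62 in DMSO, and a ratio change of 0.06 (SE 0.34). TRAPPC2L intron 2 had 46 and 52 against 65 and 51, a change of -0.09 (SE 0.33). Both pairs of libraries overlapped. PAXX, a factor of DNA end joining, had 127 and 158 reads in intron 2 against 134 and 173, and only 21 and 38 spliced reads against 35 and 35. In PAXX and in TSEN54 intron 8, which had 30 and 59 intronic reads against 65 and 66, intronic reads outnumbered spliced reads in every library, also with DMSO. With SEs of 0.33 to 0.55 on the log2 scale, these values do not show that the 4 introns were unaltered.

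Of 147 genes with at least 2 tested short internal introns, 79 had all of them raised, 52 had some and 16 had none. Of the 110 with exactly 2, both rose in 62 and 1 in 33. The median distance between the highest and the lowest change within a gene was 1.34 on the log2 scale. The interquartile range over all tested members of the class was 1.99. These are unlike measures, since 110 of the 147 genes had only 2 values. They do not show whether introns of 1 gene change alike, which was not tested. NOP56 and PRPF39 had both a raised and a lowered intron.

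In HNRNPA2B1, an RNA-binding protein of splicing and mRNA transport, the largest rises were at the 3′ end of the gene. Intron 8 (chr7:26192578-26193250) had 246 and 213 intronic reads against 5 and 5, and intron 7 (chr7:26193374-26193574) had 83 and 109 against 5 and 4. Their ratios rose by 6.03 (SE 0.35) and 4.61 (SE 0.35; edgeR adjusted p = 4.65e-07 and 1.76e-06). Intron 2, of 297 bp, had 0.0443 and 0.0419 intronic reads per 100 spliced against 0.033 and 0. Intron 5, of 491 bp, had 0.119 and 0.0667 against 0.0214 and 0.0371, on 4 and 3 intronic reads against 1 and 2. Neither had enough intronic reads to be tested. Intron 8 thus held 13.6 and 11 per 100 after H3B-8800, while introns 2 and 5 upstream held at most 0.119. Whether these 2 introns changed cannot be read from so few reads.

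RACK1, listed as GNB2L1, encodes a scaffold protein of the small ribosomal subunit. Intron 5 (chr5:181238240-181239066) had 757 and 749 intronic reads against 24 and 24, and intron 4 (chr5:181239178-181239486) had 269 and 356 against 6 and 11. Intron 6 had 179 and 263 against 14 and 6. The changes were 5.33 (SE 0.25), 5.61 (SE 0.34) and 4.70 (SE 0.35). Intron 2, which holds SNORD96A and is covered by an exon of another transcript, already had 8.04 and 8.0 intronic reads per 100 spliced with DMSO and reached 29.6 and 28.4, a smaller change of 1.85 (SE 0.19). Spliced reads at introns 4, 5 and 6 changed by -0.12 to 0.07, and none of the 3 passed the test.

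U2AF2 encodes the large subunit of U2AF, which binds the polypyrimidine tract and recruits U2. Its intron 3 (chr19:55660222-55660515) had 342 and 434 intronic reads against 9 and 13. That is 78.8 and 96.7 per 100 spliced reads against 1.92 and 2.67, a change of 5.23 (SE 0.34; edgeR adjusted p = 7.34e-07). Intron 2 had 16 and 25 against 2 and 0, and intron 9 rose by 2.90 (SE 0.55; edgeR adjusted p = 0.000854). Introns 2 and 9 had few intronic reads in DMSO and entered the test only through the treated libraries. Introns 4 and 6, of 418 and 987 bp, had at most 0.37 intronic reads per 100 spliced in any library. The level was thus high at intron 3 and near 0 at intron 4, the next one in the RNA. An exon of another transcript covers intron 3 in part and none lies in intron 4, so reads of that exon cannot be told apart from retention at intron 3.

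NOP56 is a core protein of box C/D small nucleolar ribonucleoproteins, and several of its introns hold small nucleolar RNAs. Intron 8, with SNORD86, had the highest DMSO level of the gene's introns, 50.9 and 59.8 intronic reads per 100 spliced. An exon of another transcript covers it, and reads of that exon cannot be told apart from retention. It had 220 and 243 intronic reads after H3B-8800 and 806 and 885 in DMSO, and 600 and 654 spliced reads against 1582 and 1480. Both forms fell, intronic reads by 1.78 (SE 0.11) and spliced reads by 0.96 (SE 0.08). The ratio fell by 0.58 (SE 0.23; edgeR adjusted p = 0.0459). It missed the threshold with DESeq2 (adjusted p = 0.269), with a replicate block (0.0768), without either H3B-8800 library (0.164 and 0.155) and without DMSO replicate 2 (0.153).

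On either side of NOP56 intron 8 lie introns 7 and 9. Intron 7, without a small RNA, had 0 and 3 intronic reads against 9 and 7 and was too shallow to be tested. Intron 9, with SNORD56, had 18 and 10 intronic reads against 15 and 8, which overlap. Its spliced reads were fewer, 287 and 333 against 837 and 1012. The ratio of intron 9 thus rose by 1.85 (SE 0.55; edgeR adjusted p = 0.0118). That call was lost without H3B-8800 replicate 1 (adjusted p = 0.205) or DMSO replicate 2 (0.0626). Intron 10, which holds SNORD57, had 259 and 227 intronic reads against 81 and 58, a rise of 3.29 (SE 0.27; edgeR adjusted p = 3.06e-06). Intron 5, with SNORA51, had 51 and 48 against 8 and 16, a rise of 2.56 (SE 0.40; adjusted p = 0.000228).

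**Figure D5:**
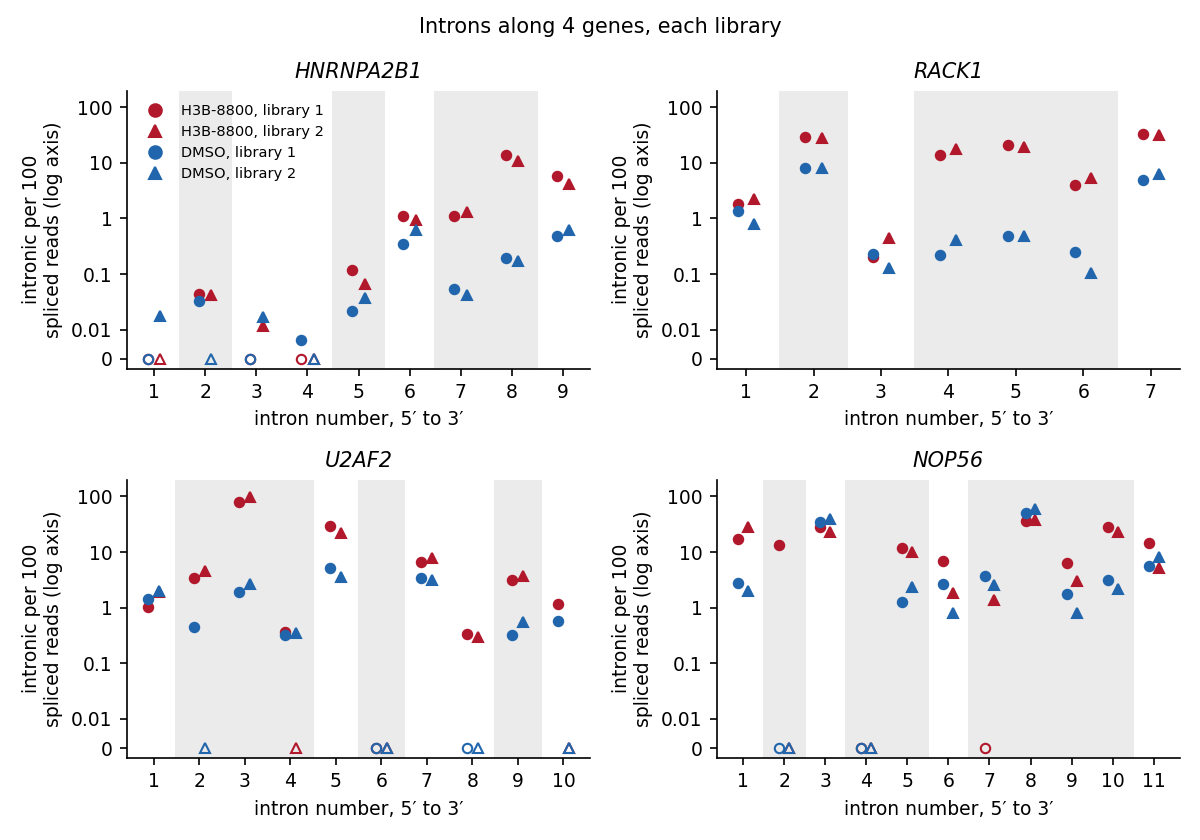
Intronic reads per 100 spliced reads (log axis, open symbols are 0) along the introns of HNRNPA2B1, RACK1, U2AF2 and NOP56, 1 symbol per library. Grey marks short internal introns, and the gap between H3B-8800 and DMSO differs from one grey intron to the next within each gene.

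FLNA and EIF4A2 had the most tested short internal introns, 6 and 5. FLNA encodes filamin A, which crosslinks actin. Its intron 42 had 131 and 176 intronic reads against 57 and 73, a rise of 2.10 (SE 0.28), and intron 9 had 22 and 37 against 6 and 2, a rise of 3.95 (SE 0.63). Introns 33 and 43 rose by 2.25 (SE 0.51) and 2.42 (SE 0.42). Introns 9, 33 and 43 had a mean under 10 intronic reads in DMSO. They entered the test only through the treated libraries, so a gap between the groups was built into their choice. Intron 41 had 55 and 34 against 64 and 47, and intron 26 had 24 and 10 against 20 and 22, and neither passed. At all 6 introns spliced reads were lower with H3B-8800, with log2 changes from -0.78 to -0.54, each past the threshold.

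EIF4A2, an RNA helicase of translation initiation, hosts small RNAs in 4 of its 5 tested introns. Intron 8, with SNORA63, had 122 and 153 intronic reads against 21 and 25, a rise of 2.43 (SE 0.35; edgeR adjusted p = 0.000134). Intron 4, which holds none, had 41 and 32 against 20 and 16. It passed (adjusted p = 0.0125) but was lost with DESeq2 (adjusted p = 0.0541), without H3B-8800 replicate 1 (0.116) and without DMSO replicate 2 (0.0561). Intron 9 had 38 and 38 against 17 and 17 and missed the threshold (adjusted p = 0.0663). Intron 3 had 14 and 39 against 31 and 15, so the groups overlapped. Intron 7 had 17 and 35 against 18 and 7 and passed only without DMSO replicate 1 (adjusted p = 0.0458).

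Genes were grouped into 15 lists by function, and the share of 71.0% raised over all tested short internal introns is the base for reading them. Many of these introns could be tested only because they were high with H3B-8800, so the count with 10 reads of each kind asked of the DMSO libraries alone (base 57.5%) is given too. In ribosomal protein genes 29 of 41 tested introns rose, 0 fell and the median was 1.5. With the DMSO filter it was 23 of 32. Introns of RPL12, RPS21 and RPS4X are among those that rose, and RPSA intron 2 did not pass, with 121 and 134 intronic reads against 166 and 141. Spliced reads were higher at 20 of these 41 introns and lower at 5. In genes of translation factors 11 of 19 rose, or 5 of 12 with the DMSO filter, and the median was 1.85. Intron 9 of EIF4G1, the scaffold of the cap-binding complex, had 30 and 41 intronic reads against 0 and 0, at least 15.6-fold. All 3 tested introns of aminoacyl-tRNA synthetase genes rose (1 of 1 with the DMSO filter), among them SARS1 intron 8 with 23 and 28 against 11 and 5.

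All 11 tested introns of proteasome genes rose, in 5 genes, with a median of 3.05, and 5 of 5 with the DMSO filter. Summed over the 76 short internal introns of this list, intronic reads per 100 spliced were 1.85 ± 0.1 after H3B-8800 and 0.294 ± 0.074 in DMSO (SD, n = 2 each). PSMD3, a scaffold subunit of the regulatory particle, had 155 and 201 reads in intron 9 against 13 and 14, and 75 and 65 in intron 10 against 14 and 8. PSMB4, a subunit of the core particle, had 100 and 89 in intron 4 against 8 and 36. In chaperone genes 6 of 12 rose, with a median of 1.14, or 5 of 10 with the DMSO filter. TRAP1, the mitochondrial HSP90, had 64 and 65 in intron 6 against 23 and 13, while CDC37 intron 2, in a kinase co-chaperone gene, had 10 and 17 against 51 and 24 and did not pass (edgeR adjusted p = 0.101), though it did without DMSO replicate 2 (adjusted p = 0.00927).

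In glycolysis genes all 7 tested introns rose, with a median of 3.07. Only 2 of the 7 had 10 reads of each kind in DMSO, and both rose. The 3 named next had fewer and entered through the treated libraries. Intron 4 of TPI1, triose phosphate isomerase, had 35 and 68 against 2 and 1 intronic reads, and H3B-8800 over DMSO came to 48.3 (counting interval 16.1 to 238). GAPDH intron 5 had 36 and 41 against 3 and 8 beside 16869 to 21641 spliced reads, and ENO1 intron 4, in the enolase gene, had 60 and 52 against 10 and 4. These introns rose from a very low level: the 51 introns of the list held 0.121 ± 0.0025 intronic reads per 100 spliced with DMSO and 0.599 ± 0.0078 after H3B-8800 (SD, n = 2 each). In cytoskeleton genes 11 of 20 rose, with a median of 1.42, or 5 of 13 with the DMSO filter. There intron 51 of TLN1, which couples integrins to actin, had 28 and 26 against 0 and 2.

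Genes of the splicing machinery made up 4 lists. In the list of SF3b, SF3a and U2 recruitment factors 5 of 6 tested introns rose, with a median of 3.34, or 1 of 2 with the DMSO filter. They include 3 introns of U2AF2 and SF3A2 intron 7, which had 17 and 22 intronic reads against 0 and 2. Over all 85 short internal introns of that list the level was 2.65 ± 0.37 against 0.405 ± 0.028 per 100 spliced (SD, n = 2 each). In other core spliceosome genes 3 of 5 rose (1 of 2 with the DMSO filter), among them intron 20 of EFTUD2, a GTPase of the U5 snRNP, with 17 and 19 against 4 and 3.

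Among SR proteins and their kinases 2 of 5 rose and the median was 0.77, and 1 of 3 rose with the DMSO filter. SRSF5 intron 3 had 76 and 91 intronic reads against 1 and 3, and its spliced reads also rose, from 513 and 469 to 827 and 874. SRSF7 intron 3 had 88 and 94 against 106 and 130, so its raised ratio (edgeR adjusted p = 0.0313) came with fewer spliced reads, 346 and 447 against 844 and 890. That call was lost with DESeq2 (adjusted p = 0.173), with a replicate block (0.0571), without either H3B-8800 replicate (0.193 and 0.0829) and without DMSO replicate 1 (0.0971). In hnRNP genes 4 of 9 rose, 1 fell and the median was 0.72, and with the DMSO filter 0 of 5 rose. HNRNPK intron 2 had 23 and 25 against 0 and 0, at least 8.68-fold.

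In extracellular matrix and adhesion genes 5 of 7 rose and 1 fell, and 3 of 5 rose with the DMSO filter. ITGA5 intron 25, in the gene of the fibronectin receptor's α subunit, had 141 and 159 intronic reads against 14 and 19, and COL7A1 intron 113 had 32 and 45 against 6 and 4. All 7 tested introns of kinase genes rose, with a median of 2.45, and 3 of 3 with the DMSO filter. AKT1 intron 4 had 15 and 36 against 4 and 8. In DNA replication genes 3 of 4 rose (2 of 3 with the DMSO filter), with MCM3 intron 9 at 13 and 31 against 7 and 8. All 3 in DNA repair genes rose, and 1 of 1 with the DMSO filter. FANCG intron 8, a Fanconi anaemia gene, had 18 and 12 intronic reads against 5 and 6, with 3 and 4 spliced reads against 32 and 31. With 3 to 12 tested introns in most lists, and fewer with the DMSO filter, their shares are rough, and no list was tested against the others.

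Features of the sequence separated raised introns from the others little. In the 3112 introns with a sequence, 98.7% began with GT and 99.6% ended with AG, and the median GC content was 54.9%. Of these, 328 were tested. The median GC content was 54.9% in the 223 raised and 54.4% in the 102 that did not pass, and the pyrimidine share of the last 50 bases was 58% and 60%. A CTNAC match lay in the last 50 bases of 22.9% of raised and 26.5% of not passed introns, beside 28.5% of all 3112 and 30.1% of 7640 introns of any class with a sequence. With the 328 divided by GC content into 3 groups of 108 to 111, 66.1% of the lowest, 64.0% of the middle and 74.1% of the highest were raised. Spearman's rho with the log2 change was 0.14 for GC content and -0.12 for the pyrimidine share across 328 introns, and -0.04 for length across 965, which share the same 4 libraries.

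Introns covered by an exon of another transcript, the ones with a sequence here, mostly hold a stop codon in frame. Of 3092 of them that lie within the coding sequence, 2909 (94.1%) held a stop codon in the frame of the upstream exon, first met at a median of codon 18. Among the raised it was 96.0% and among the not passed 96.1%. SRSF5 intron 3 meets its first stop at codon 10 and FLNA intron 41, which did not pass, at codon 140. No protein was measured.

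By length, of 120 tested introns up to 250 bp 73.3% rose, of 276 up to 500 bp 71.7%, of 292 up to 750 bp 70.9% and of 277 up to 1000 bp 69.3%. Their median changes were 2.21, 2.26, 2.18 and 2.14. Among those with no annotated exon inside, the 2 shorter groups had the higher shares: 19 of 22 (86.4%), 55 of 66 (83.3%), 50 of 70 (71.4%) and 53 of 72 (73.6%) rose, with medians of 3.37, 3.1, 2.37 and 2.59. These differences were not tested, and few of the shortest could be read. Introns that hold a small RNA were raised in 35 of 49 tested, with 1 lowered and a median of 1.63, and their summed ratio was 2.90, or 2.04 without the 1% with the most intronic reads. Where the intron holds a whole inner exon of another transcript, 38 of 69 tested introns rose and the median was 1.49, the lowest of the groups by what lies inside.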

How the data were processed

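RNA from the cytoplasmic fraction was measured in 4 libraries, 2 with H3B-8800 and 2 with DMSO, grouped by their treatment labels. The libraries were strand-specific and polyA-selected, per the labels' protocols. The submitters' processing notes name HISAT2 2.0.4, hg38 and mm10, without a role for each. The counting method and its use of strand are not given in the sources used here, so overlapping and antisense genes are uncertain. The authors deposited, per intron of 1 transcript per gene, 2 read counts and an RPKM value, without a header. Dividing the first count by the deposited RPKM and the length of the intron gave 1 library total per library. The second count was never below the first, and its excess was read as spliced reads. This reading rests on the values. For 18 introns no second count was given.

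The short internal introns, gene lists, markers and tests were chosen with earlier results of these data known. Counts were tested with edgeR 4.0.16 (R 4.3.3) over all introns of the table with a mean of at least 10 reads, with Benjamini-Hochberg adjustment at 0.05. The ratio test joined intronic and spliced counts in 1 model with terms for library, kind of read and the interaction of kind of read with treatment. SEs were approximated from the F statistic. Intronic reads were scaled to library totals and spliced reads by TMM. The p-values measure the spread between these 4 libraries. Tests were tested on simulated data. Alternatives were DESeq2 1.42.0, other scalings and filters, halved counts, a replicate block and leaving out each library.

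Introns were annotated with GENCODE release 29 (99.9% matched), and gene symbols were taken from RefSeq on GRCh38.p14 (98.4% of genes). Named are the 12 raised introns without and 5 with an annotated exon inside and the 6 lowered introns with the smallest p, the 4 deep introns with the smallest change, the best of each list, and the 2 genes with most tested introns. Others are said in the text to be chosen after their values were seen, or are examples from a list or neighbours, chosen the same way. None on chromosome 8 is named, and 2 introns that the rule picks are not reported here.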

Additional observations from a re-analysis of the deposited data

How the results depend on the processing

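Depth limits these results: 965 of 34645 introns had enough reads of both kinds. The main test gave 685 higher ratios of 965 tested (71.0%, beside 56.5% of all introns tested). With a mean of at least 1 read asked for, it was 331 of 7022 (4.71%, beside 5.06%). At that filter the class was thus not above all introns tested. With 30 reads it was 194 of 235 (82.6%, beside 70.1%). Without introns holding an annotated exon it was 175 of 230 (76.1%, beside 62.3%). The filter on DMSO alone gave 292 of 508 (57.5%, beside 44.0%). That filter was chosen after seeing the data, like its use on the gene lists and the count without ribosomal protein genes. Leaving out 1 library gave 525 to 633. The 7 lower ratios became 4 with DESeq2, 1 with a mean of at least 1 read, 0 without introns holding an exon (edgeR, and 0 at an unadjusted p under 0.05) and 2 to 6 without 1 library. The median of 2.19 moved to 2.09 with 30 reads, 2.78 without introns holding an exon and 1.5 with the DMSO filter. The cause of these shifts was not tested.

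More intronic reads were called in 244 introns with TMM, 159 with DESeq2, 173 with a mean of at least 1 read and 0 to 586 without 1 library. Fewer were called in 116, 77, 5 and 0 to 26 in the same order. More spliced reads were called in 1729 with library totals, 1685 with DESeq2 and 0 to 2384 without 1 library, and fewer in 2382 with DESeq2 and 0 to 3378 without 1 library. A lone library was assumed to vary like the other group.

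Samples with the same replicate number did not deviate together (correlation 0.0201), so the numbers were not taken as pairs. A replicate block gave 670 higher and 4 lower ratios, 535 and 23 calls of intronic reads and 3070 and 4374 of spliced reads.

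The 73 introns checked under other settings were picked by the naming rule or chosen after their values were seen, which favours strong changes. Of their 511 values, 475 kept direction and side of the threshold, 25 lost and 2 gained a call. In 9 the sign changed when 1 library was left out, all among introns that had not passed. Over the 4 omissions the changes ranged from -0.23 to 0.4 in SRRM2 intron 11, -0.25 to 0.35 in TSEN54 intron 8, -0.37 to 0.2 in TRAPPC2L intron 2, -0.07 to 0.47 in PAXX intron 2 and -1.04 to 0.62 in EIF4A2 intron 3, and from -0.21 to 1.5 in FLNA intron 26. The 3 class comparisons and the pooled ratio kept their direction under every setting tried.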
